A study of Homo sapiens with 6 samples.

Results

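The kinetochore, centromere and spindle checkpoint genes are 48 genes taken by name from the 15651 genes in the table of these data, all of which were found, 45 under their current symbol and 3 (KNL1, SGO1 and SGO2) under an older one. They were sorted by the place of their proteins into 15 inner kinetochore genes, 3 genes for loading CENP-A, 13 outer kinetochore genes, 6 genes of the corona (the outermost layer of an unattached kinetochore), 6 checkpoint genes and 5 genes of the inner centromere. The RNA came from MDA-MB-231, a human triple-negative breast cancer (TNBC) cell line, in 3 libraries of cells treated with DMSO, the solvent control, and 3 of cells treated with BRL-50481, an inhibitor of the cAMP-degrading phosphodiesterase PDE7A. The treatment text of the labels gives 50 μM for 72 h, whereas their treatment tag gives 5 μM and 48 h. The comparison addressed which genes differ in RNA level after PDE7A inhibition, here in a single cell line without genetic change in either group.

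A kinetochore is the protein assembly that each chromosome builds on its centromere in order to hold spindle microtubules. Its inner layer sits on nucleosomes that carry the histone H3 variant CENP-A and stays on the centromere through the cell cycle, whereas the outer layer is assembled as cells enter mitosis and carries the microtubule-binding NDC80 complex. Kinetochores without microtubules recruit BUB1, MAD and TTK proteins, which delay anaphase through the spindle assembly checkpoint, and Aurora B kinase at the inner centromere releases faulty attachments. In RNA from a whole culture, more cells in mitosis and more RNA of a gene in each cell cannot be told apart.

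Between 30750573 and 33446984 reads per library fell on genes, and values are given as normalized counts, the read count divided by the size factor of the library. Differences are log2 fold changes of BRL-50481 over DMSO with their standard error (SE), and a gene was called at a Benjamini-Hochberg adjusted p under 0.05 in limma over the 15246 genes tested. The line's mesenchymal markers VIM, CD44 and AXL lay between 30982 and 88612 normalized counts, PGR lay between 0 and 7.75, while the other markers expected to be low, CDH1, EPCAM and ERBB2, reached 105, 773 and 1979. ESR1, also expected to be low, was not among the genes listed and could not be checked. Library DMSO 1 stood apart from DMSO 2 and DMSO 3. The deviation of its genes from the DMSO mean rose with transcript length, with a Spearman rho of 0.639 across 12066 genes against -0.559 and -0.330 in the other DMSO libraries and between -0.156 and 0.085 in the BRL-50481 libraries. Values are also given after a correction of every library for length and GC content of the transcripts (the length and GC correction). They are given where this changed the call of a gene named here or moved a called value by over 1.5 times. The correction fits deviations from the mean of all 6 libraries, so it also removes such trends between BRL-50481 and DMSO. The paper calls the replicates biological, and the labels do not say whether they were separate cultures, so the p-values measure only the spread between these libraries.

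Of the 48 members, all of which passed the filter on low values, 26 (54.2%) were called higher in BRL-50481, where 28.9% of all genes tested were called higher. Another 7 members (14.6%) were called lower, where 29.8% of all genes tested were called lower, and 15 were not called. The BRL-50481 libraries lay all above the DMSO libraries in 27 members (31.9% of all genes) and all below them in 6 (32.3% of all genes). The median log2 fold change of the members was 0.32, against 0.015 for all genes tested. A log2 fold change over 1 was reached by 4 called members (5.06% of all genes), the motor CENPE, the histone CENPA, the NDC80 complex subunit SPC25 and the inner kinetochore subunit CENPI. No called member was under -1 (2.98% of all genes) in limma, at an unadjusted p under 0.05, in edgeR or in DESeq2, the lowest being CENPH at -0.40. All 26 members called higher were called higher under each of 18 other settings, which include leaving out each library. Of the 7 called lower, 5 were called lower under each of them, and SKA2 and MIS18A were not. After the length and GC correction, 28 members (58.3%) were called higher and 12 (25.0%) lower, where 28.4% and 37.3% of the 14718 genes tested in that fit were called higher and lower. Summed over the 48 members, 0.242%, 0.231% and 0.238% of the library came from these genes in DMSO and 0.327%, 0.316% and 0.321% in BRL-50481, so every BRL-50481 library carried a larger share.

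**Figure D1:**
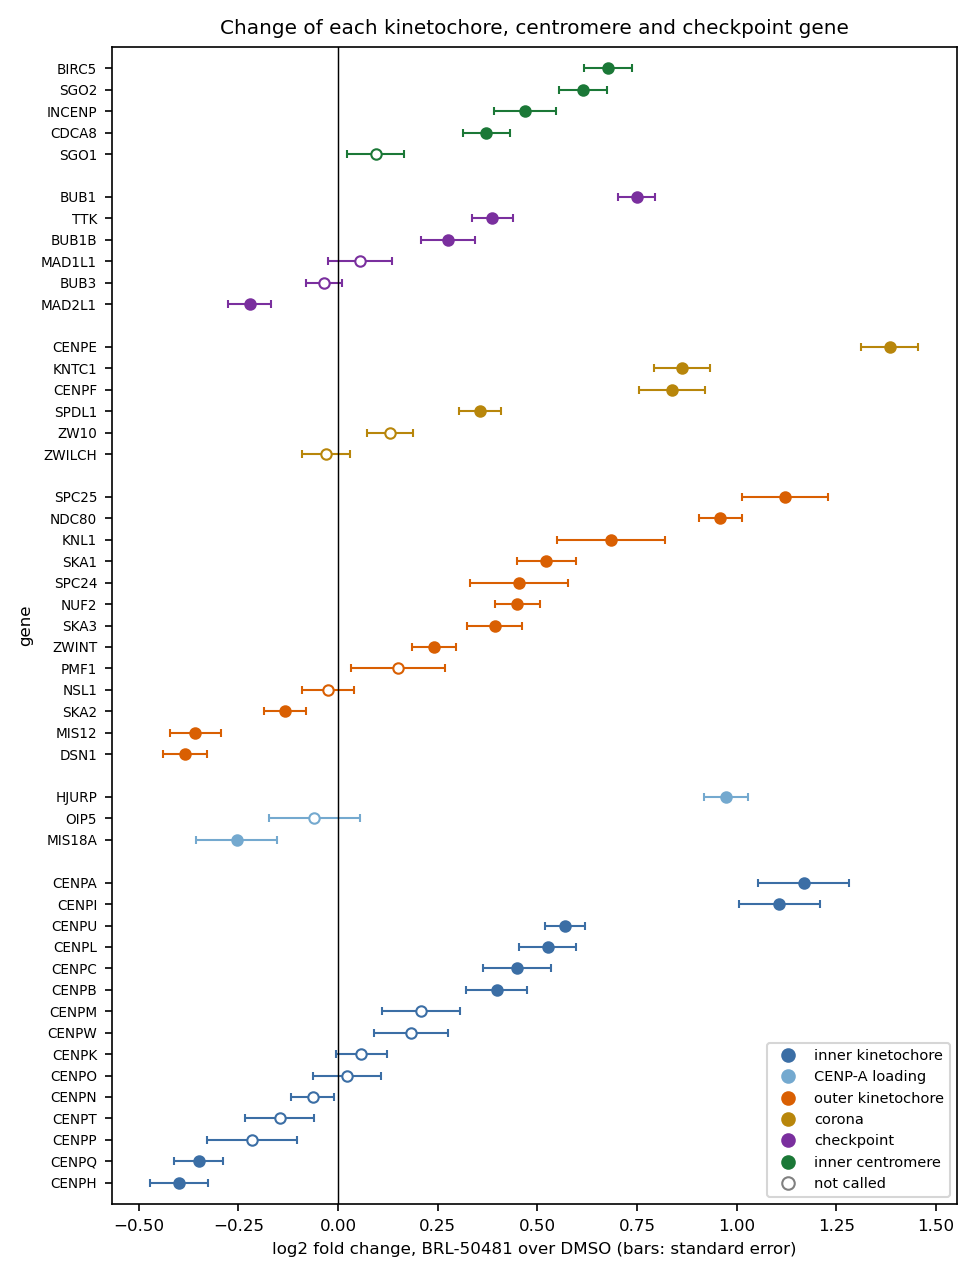
Log2 fold change of BRL-50481 over DMSO (horizontal axis) for each of the 48 genes (vertical axis), sorted by class, with bars of 1 standard error. Filled points were called and open points were not, and the points run from -0.40 for CENPH to 1.38 for CENPE.

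Many genes of mitosis carry in their promoter a cell cycle genes homology region (CHR), which binds the DREAM and MYB-MuvB complexes, and CCAAT boxes, which bind NF-Y. RefSeq promoters of 300 bases, 250 before to 50 after the start on build GRCh38.p14, were given for 39 of the 48 members (the exceptions being BUB3, TTK, KNL1, KNTC1, CENPH, CENPL, CENPM, MIS18A and BIRC5). The stretches shown are the 150 bases before the start, read on the gene's own strand. They were chosen after the values were seen, to set members called higher with a CHR beside 1 without it and beside 2 called lower. HJURP lies on the minus strand at chr2:233854536-233854685, CENPA on the plus strand at chr2:26785906-26786055, CENPC on the minus strand at chr4:67545504-67545653, INCENP on the plus strand at chr11:62123861-62124010, CDCA8 on the plus strand at chr1:37692366-37692515 and ZWINT on the minus strand at chr10:56361260-56361409. BUB1, called higher and without CHR letters, lies on the minus strand at chr2:110678064-110678213, and the members called lower are CENPQ on the plus strand at chr6:49463220-49463369 and MAD2L1 on the minus strand at chr4:120066849-120066998. Capitals mark TTTGAA (CHR), TTTAAA (a CHR variant) and CCAAT on either strand, so that a match on the other strand reads TTCAAA or ATTGG.
HJURP: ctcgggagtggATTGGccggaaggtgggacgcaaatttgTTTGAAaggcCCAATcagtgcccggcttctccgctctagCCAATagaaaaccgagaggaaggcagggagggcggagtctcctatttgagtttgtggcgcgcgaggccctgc
CENPA: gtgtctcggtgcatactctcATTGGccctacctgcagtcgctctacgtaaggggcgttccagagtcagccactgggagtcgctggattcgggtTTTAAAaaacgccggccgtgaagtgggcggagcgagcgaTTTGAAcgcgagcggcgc
CENPC: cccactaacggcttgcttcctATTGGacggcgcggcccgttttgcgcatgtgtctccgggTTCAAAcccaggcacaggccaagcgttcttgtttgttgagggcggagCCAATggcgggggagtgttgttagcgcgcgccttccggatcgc
INCENP: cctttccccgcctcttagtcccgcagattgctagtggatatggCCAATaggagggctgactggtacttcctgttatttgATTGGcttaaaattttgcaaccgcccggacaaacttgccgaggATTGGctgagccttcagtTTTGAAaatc
CDCA8: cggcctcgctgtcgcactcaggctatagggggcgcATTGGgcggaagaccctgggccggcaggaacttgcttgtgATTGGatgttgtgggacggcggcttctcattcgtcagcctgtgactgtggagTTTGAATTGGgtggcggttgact
ZWINT: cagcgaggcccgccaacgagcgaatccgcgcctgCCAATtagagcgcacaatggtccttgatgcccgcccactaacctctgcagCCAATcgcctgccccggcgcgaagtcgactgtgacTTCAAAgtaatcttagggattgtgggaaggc
BUB1: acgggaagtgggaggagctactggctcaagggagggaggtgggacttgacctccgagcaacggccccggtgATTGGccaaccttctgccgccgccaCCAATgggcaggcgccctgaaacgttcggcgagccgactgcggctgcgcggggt
CENPQ: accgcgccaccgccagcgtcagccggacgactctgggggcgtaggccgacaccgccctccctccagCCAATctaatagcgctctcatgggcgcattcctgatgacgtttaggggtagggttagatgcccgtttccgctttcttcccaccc
MAD2L1: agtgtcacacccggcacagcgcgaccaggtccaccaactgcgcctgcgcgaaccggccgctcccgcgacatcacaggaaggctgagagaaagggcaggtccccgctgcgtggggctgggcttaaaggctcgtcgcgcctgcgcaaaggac
In CDCA8 the CHR match at base -23 and the CCAAT match at -18 share 1 letter. The CHR match begins at base -111 before the start in HJURP, -90 in CENPC, -31 in ZWINT, -18 in CENPA and -10 in INCENP. MAD2L1 holds CHR letters too, but 25 bases after the start and so outside the stretch shown.

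CHR letters were present in 18 of the 39 member promoters (46.2%) and in 1150 of 11600 promoters of tested genes (9.91%). Within 50 bases of the start on either side they were present in 15 member promoters (38.5%), against 324 of all those of tested genes (2.79%). CCAAT letters were found in 25 (64.1%, against 36.5% of tested genes), and CHR and CCAAT together in 12 (30.8%, against 4.19%). Among members called higher, 14 of 21 promoters held CHR letters (66.7%), as did 3 of 13 of those not called and 1 of 5 of those called lower. CCAAT letters were found in 13 of 21, 8 of 13 and 4 of 5 of the same promoters. The letters TTTCCCGC, TTTCGCGC or TTTGGCGC, versions of an E2F site, were found in 4 members (10.3%, against 4.42%), and the variant TTTAAA in 4 (10.3%, against 7.84%), all 4 of which were called higher. Of the 4 members with the highest fold changes, SPC25 and CENPA held CHR letters and CENPE held only the variant. The CENPI window (chrX:101100808-101101107) held neither, but it lies inside the GENCODE span of the gene. So do the windows of SPC25, CENPA, NUF2, SGO2, MAD1L1, ZWILCH, CENPN and CENPO in their own genes. Whether transcripts in these cells begin at these starts was not tested. A match describes the letters and was not tested as a binding site.

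**Figure D2:**
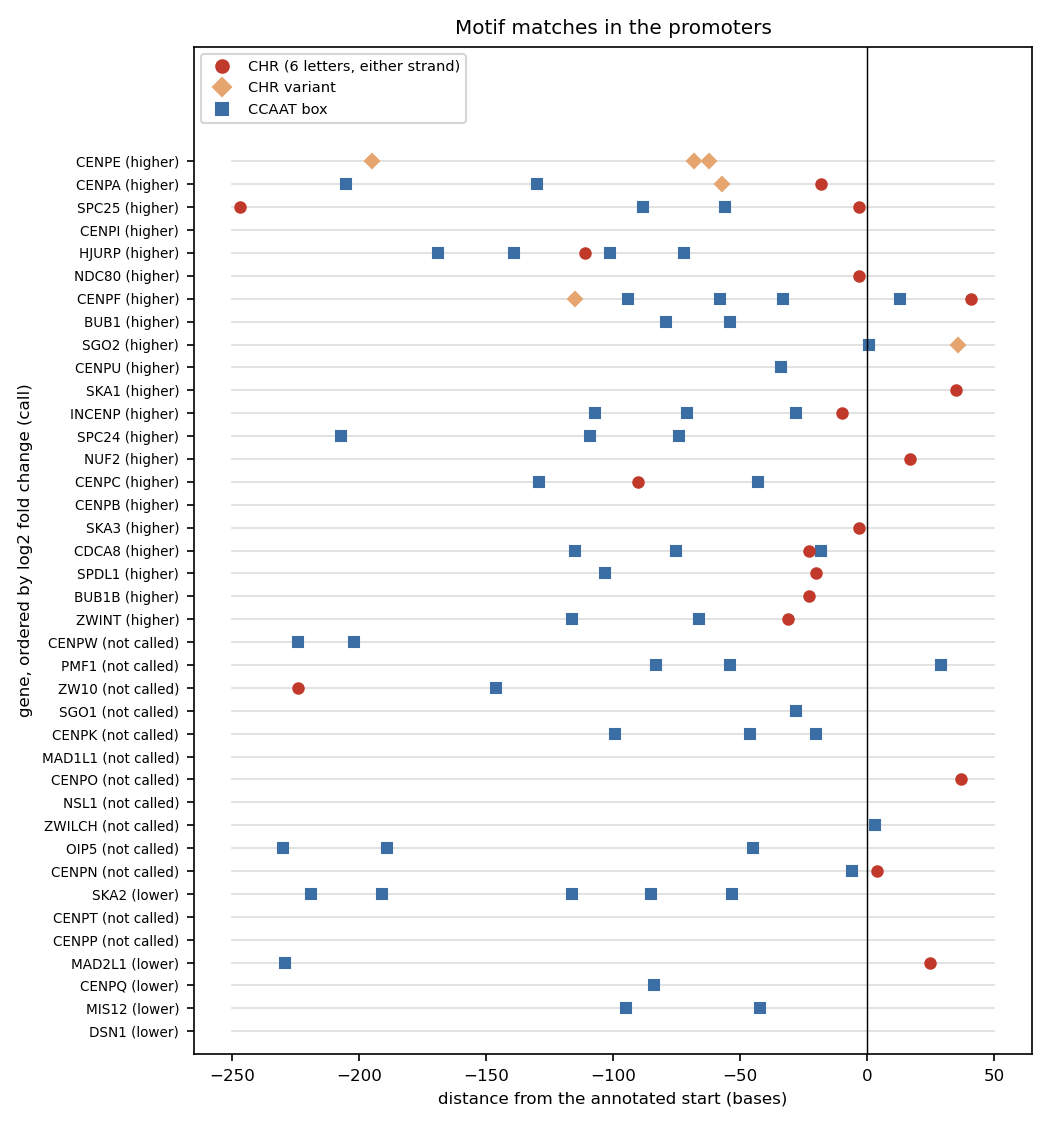
Position of CHR, CHR variant and CCAAT matches relative to the RefSeq start (horizontal axis, in bases) in 39 member promoters (vertical axis), ordered by log2 fold change with the call in brackets. CHR matches are found in 14 of 21 promoters of members called higher and in 4 of the other 18.

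The outer kinetochore is where the NDC80 complex of NDC80, NUF2, SPC24 and SPC25 grips the microtubule, and all 4 of its subunits rose. SPC25, a subunit of the inner end of the complex (hg38 chromosome 2, 168834132 to 168913371, minus strand), had normalized counts of 286, 230 and 286 in DMSO and 630, 519 and 597 in BRL-50481. Its groups lay far apart, and its log2 fold change was 1.12 (SE 0.108, adjusted p = 1.67e-06). NDC80, the subunit that contacts the microtubule (hg38 chromosome 18, 2571557 to 2616635, plus strand), had 1632, 1735 and 1753 in DMSO and 3412, 3294 and 3247 in BRL-50481. Each treated library was far above the controls, with a log2 fold change of 0.96 (SE 0.0536, adjusted p = 1.69e-08). NUF2, the partner of NDC80, rose by 0.45 (SE 0.0569) and SPC24, the partner of SPC25, by 0.45 (SE 0.123) on the log2 scale. KNL1, the scaffold that recruits BUB proteins, had 1552, 906 and 1195 in DMSO, against 1966, 1845 and 1926 in BRL-50481. The groups did not overlap, and the log2 fold change was 0.69 (SE 0.136), or 0.48 after the length and GC correction. Leaving out 1 library moved it between 0.49 and 0.88, the highest being without DMSO replicate 1. KNL1 has a transcript of 9266 bases. Its highest DMSO value was in DMSO 1, whose deviations rose with length, and its lowest in DMSO 2, whose deviations fell with length. A link was not tested.

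Genes of the MIS12 complex, which joins the outer to the inner layer, did not follow the NDC80 genes. DSN1, a subunit that Aurora B phosphorylates, had 2162, 2210 and 2289 normalized counts in DMSO and 1745, 1719 and 1638 in BRL-50481. Every treated library was below every control library, and its log2 fold change was -0.38 (SE 0.0549, adjusted p = 5.23e-05). MIS12, which names the complex, had 1666, 1559 and 1604 in DMSO and 1225, 1200 and 1345 in BRL-50481, with a log2 fold change of -0.36 (SE 0.0633, adjusted p = 0.000312). These groups too were separate. The other subunits were not called, NSL1 at -0.025 (SE 0.0659) and PMF1 at 0.15 (SE 0.118) on the log2 scale, and the GENCODE exons of PMF1 overlap those of the readthrough gene PMF1-BGLAP on the same strand. NSL1 was called lower after the length and GC correction (-0.28, adjusted p = 0.00676), and its transcript of 13115 bases is the longest among the members.

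The SKA complex, which keeps the NDC80 complex on a shrinking microtubule, was split. SKA1 rose by 0.52 (SE 0.0741) and SKA3 by 0.39 (SE 0.0692) on the log2 scale. SKA2 had 2976, 3045 and 3079 normalized counts in DMSO and 2915, 2641 and 2746 in BRL-50481, with a log2 fold change of -0.13 (SE 0.0535, adjusted p = 0.0467). The highest treated library was just under the lowest control library. The call was lost in 8 of 18 other settings (adjusted p up to 0.235), among them the fits without DMSO replicate 2 or 3 and without BRL-50481 replicate 2 or 3 (adjusted p = 0.0746, 0.141, 0.196 and 0.137). ZWINT, which links KNL1 to the corona, rose by 0.24 (SE 0.0554), the smallest change among the members called higher. In all, 8 of 13 outer kinetochore genes were called higher (61.5%) and 3 lower (23.1%), where all genes tested gave 28.9% and 29.8%. The outer kinetochore median log2 fold change was 0.39.

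Corona proteins bind unattached kinetochores, capture microtubules from the side and load checkpoint proteins and dynein. CENPE, the kinesin that carries chromosomes towards the spindle equator (hg38 chromosome 4, 103105349 to 103198445, minus strand), had 1592, 1279 and 1458 normalized counts in DMSO and 3891, 3671 and 3693 in BRL-50481. All treated libraries were more than double the highest control, and its log2 fold change of 1.38 (SE 0.0724, adjusted p = 1.02e-08) was the highest of the 48. KNTC1, the ROD subunit of the RZZ complex that recruits dynein and MAD1 (hg38 chromosome 12, 122527246 to 122626396, plus strand), had 1619, 1391 and 1334 in DMSO and 2650, 2622 and 2603 in BRL-50481. The groups were separate and the log2 fold change was 0.86 (SE 0.0696, adjusted p = 3.64e-07).

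The partners of KNTC1 in the RZZ complex behaved otherwise. ZWILCH had 2162, 1957 and 2112 in DMSO and 2154, 1999 and 1948 in BRL-50481, which overlapped (log2 fold change -0.030, SE 0.061). ZW10 lay between 1500 and 1615 in DMSO and between 1659 and 1742 in BRL-50481, so that its groups did not overlap, but its log2 fold change of 0.13 (SE 0.057) was not called (adjusted p = 0.0647). CENPF, a large coiled-coil protein that is made before mitosis and binds dynein regulators, had 9890, 7276 and 8173 in DMSO and 14925, 14859 and 15132 in BRL-50481, values that are given in full because they were seen to spread widely in DMSO. The treated libraries were close together and all above, with a log2 fold change of 0.84 (SE 0.0829, adjusted p = 2.15e-06). SPDL1 (Spindly), the dynein adaptor at kinetochores, rose by 0.36 (SE 0.0524). In all, 4 of the 6 corona genes were called higher (66.7%, against 28.9% of all genes tested) and 0 lower (against 29.8%). The count called lower was also 0 at an unadjusted p under 0.05, in edgeR and in DESeq2. The median log2 fold change of the corona genes was 0.60. The length and GC correction lowered the fold changes of these long genes, that of CENPE to 1.18 and that of CENPF to 0.62, and made ZWILCH a lower call (-0.11).

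**Figure D3:**
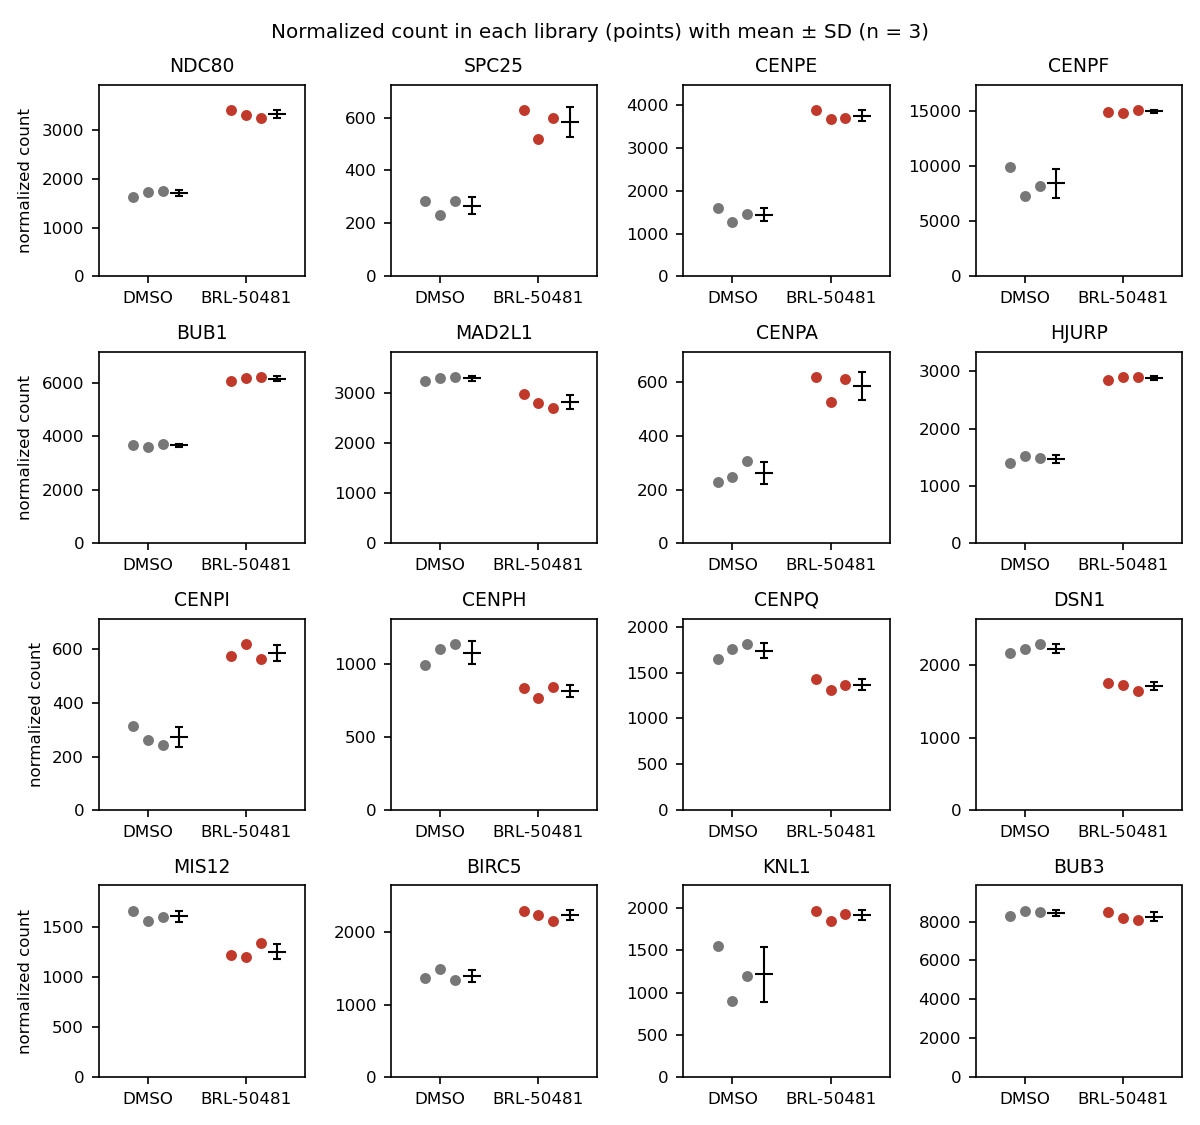
Normalized count (vertical axis, from 0) in each DMSO and BRL-50481 library (points) with the mean ± SD of 3 libraries, for 16 of the genes. The groups are apart in 15 of the panels, and BUB3 overlaps.

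Among the checkpoint genes the kinases rose and the subunits of the inhibitory complex did not move as a group. BUB1, the kinase that marks the centromere for shugoshin and carries MAD1 to the kinetochore (hg38 chromosome 2, 110637528 to 110678063, minus strand), had 3662, 3604 and 3723 normalized counts in DMSO and 6067, 6164 and 6233 in BRL-50481. The libraries of each group were close together, and the log2 fold change was 0.75 (SE 0.0456, adjusted p = 3.41e-08). TTK, the kinase (MPS1) that starts checkpoint signalling on KNL1, had 2171, 2053 and 2129 in DMSO and 2760, 2712 and 2837 in BRL-50481, a log2 fold change of 0.39 (SE 0.0518, adjusted p = 3.01e-05). BUB1B, which encodes BUBR1, the pseudokinase of the mitotic checkpoint complex, rose by 0.28 (SE 0.0676), with exons that overlap PAK6 on the same strand.

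MAD2L1 encodes MAD2, which closes on CDC20 to hold back the anaphase-promoting complex. It had 3246, 3314 and 3336 in DMSO and 2986, 2800 and 2705 in BRL-50481, all treated libraries being below all controls (log2 fold change -0.22, SE 0.053, adjusted p = 0.00286). The length and GC correction moved it to -0.35. BUB3, the adaptor that holds BUB1 and BUBR1, lay between 8290 and 8563 in DMSO and between 8092 and 8497 in BRL-50481, a log2 fold change of -0.035 (SE 0.0446) that was not called. Its transcript is 7703 bases long, and after the length and GC correction BUB3 was called lower (-0.22, adjusted p = 0.00172). This makes 2 lower calls among the 6 checkpoint genes (33.3%) in place of 1. Lower calls among all genes tested were 37.3% in that fit and 29.8% without the correction. MAD1L1, the kinetochore receptor of MAD2, was not called either (0.055, SE 0.0811) and shares exons with another gene on its strand. In all, 3 checkpoint genes were called higher (50.0%) and 1 lower (16.7%), where all genes tested gave 28.9% and 29.8%. The checkpoint median log2 fold change was 0.17.

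The inner kinetochore genes include both the histone variant itself and the network of CENP proteins built on it. CENPA, the centromeric histone (hg38 chromosome 2, 26764289 to 26801067, plus strand), had 229, 247 and 307 normalized counts in DMSO and 619, 525 and 611 in BRL-50481. The treated libraries were all well above the controls, with a log2 fold change of 1.17 (SE 0.114, adjusted p = 1.89e-06), although exons of CENPA overlap those of SLC35F6 on the same strand. CENPI, a subunit of the network (hg38 chromosome X, 101098188 to 101166126, plus strand), had 314, 264 and 242 in DMSO and 575, 620 and 563 in BRL-50481. Its groups were apart, with a log2 fold change of 1.11 (SE 0.102, adjusted p = 1.13e-06), which became 0.97 after the length and GC correction.

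CENPH, which lies beside CENPI in the same CENP-H/I/K/M subcomplex, went the other way. It had 994, 1104 and 1142 in DMSO and 837, 773 and 846 in BRL-50481, with a log2 fold change of -0.40 (SE 0.0727, adjusted p = 0.000399). Every treated library was below every control, as they were for CENPQ with 1649, 1753 and 1815 in DMSO and 1428, 1307 and 1359 in BRL-50481 (-0.35, SE 0.0616, adjusted p = 0.000301). The other subunits of the CENPI subcomplex, CENPK at 0.058 (SE 0.0636) and CENPM at 0.21 (SE 0.0978), were not called. After the length and GC correction CENPM was called higher (0.30, adjusted p = 0.00301).

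The same division was seen in the CENP-O/P/Q/U complex, of which CENPU, the subunit that receives the kinase PLK1, rose by 0.57 (SE 0.05), whereas CENPQ fell and CENPO (0.022, SE 0.0845) and CENPP (-0.22, SE 0.113) were not called. Of the CENP-L/N pair, which reads the CENP-A nucleosome, CENPL rose by 0.53 (SE 0.0718) and CENPN, whose exons overlap another gene on the strand, was not called (-0.063, SE 0.0535). CENPC, which joins that nucleosome to the MIS12 complex, rose by 0.45 (SE 0.0856), and CENPB, which binds a sequence in centromeric repeats, rose by 0.40 (SE 0.0768). CENPT and CENPW, histone-fold proteins that form a second bridge to the outer layer, were not called, at -0.15 (SE 0.0866) and 0.18 (SE 0.0926). In all, 6 of 15 inner kinetochore genes were called higher (40.0%) and 2 lower (13.3%), where all genes tested gave 28.9% and 29.8%. The inner kinetochore median log2 fold change was 0.18. After the length and GC correction 8 of these genes were called higher (53.3%) and 4 lower (26.7%), with a median of 0.22. All genes tested in that fit gave 28.4% and 37.3%. In that fit CENPW was called higher (0.22, adjusted p = 0.0245), CENPN (-0.15, adjusted p = 0.00851) and CENPP (-0.37, adjusted p = 0.011) were called lower, and CENPC was at 0.28. Without DMSO replicate 1 the median was 0.12 and 4 genes were called lower, CENPP (-0.28) and CENPT (-0.23) being added. There, 4933 of all 15246 genes tested were called lower, against 4546 with all 6 libraries.

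CENP-A is placed on centromeres after mitosis by its chaperone HJURP, and the MIS18 proteins prepare the site. HJURP (hg38 chromosome 2, 233833416 to 233854566, minus strand) had 1403, 1529 and 1480 normalized counts in DMSO and 2843, 2908 and 2905 in BRL-50481. Each treated library was far above the controls, with a log2 fold change of 0.97 (SE 0.0547, adjusted p = 1.74e-08). MIS18A had 833, 1101 and 1050 in DMSO and 823, 757 and 911 in BRL-50481, a log2 fold change of -0.25 (SE 0.101, adjusted p = 0.0458). DMSO replicate 1 lay at the level of the treated libraries, so the groups overlapped, and the call was lost in 7 of 18 other settings, among them the fits without DMSO replicate 2 or 3 and without BRL-50481 replicate 1 or 2 (adjusted p = 0.153, 0.15, 0.12 and 0.194). OIP5, which encodes the partner MIS18B, had 299, 305 and 397 in DMSO and 332, 308 and 312 in BRL-50481, which overlapped (-0.059, SE 0.113). The median log2 fold change of the 3 loading genes was -0.059, or 0.073 without DMSO replicate 3.

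Between the sister kinetochores, the chromosomal passenger complex of Aurora B, INCENP, BIRC5 and CDCA8 corrects attachments, and shugoshins guard cohesin. BIRC5 (survivin), which brings the complex to the centromere, had 1361, 1486 and 1335 normalized counts in DMSO and 2293, 2231 and 2156 in BRL-50481. The groups were separate, with a log2 fold change of 0.68 (SE 0.0601, adjusted p = 8.37e-07). SGO2, the shugoshin that is found at mitotic and meiotic centromeres, had 1562, 1398 and 1510 in DMSO and 2314, 2177 and 2350 in BRL-50481 (0.61, SE 0.0609, adjusted p = 2.17e-06). Its paralogue SGO1 had 902, 888 and 933 in DMSO and 1055, 899.5 and 958 in BRL-50481, which overlapped and was not called (0.094, SE 0.0719). INCENP, the scaffold, rose by 0.47 (SE 0.078) and CDCA8 (borealin) by 0.37 (SE 0.0595). In all, 4 of the 5 genes were called higher (80.0%, against 28.9% of all genes tested) and 0 lower (against 29.8%). The count called lower was also 0 at an unadjusted p under 0.05, in edgeR and in DESeq2. The median log2 fold change of the 5 genes was 0.47.

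Set side by side, 40.0% of the inner kinetochore genes were called higher, 61.5% of the outer kinetochore genes, 66.7% of the corona, 50.0% of the checkpoint and 80.0% of the inner centromere, beside 28.9% of all genes tested. The shares called lower in the same order were 13.3%, 23.1%, 0%, 16.7% and 0%, beside 29.8% of all genes tested. The median log2 fold changes in the same order were 0.18, 0.39, 0.60, 0.17 and 0.47. Of the 3 CENP-A loading genes 33.3% were called higher and 33.3% lower, with a median of -0.059. The gap between the inner and outer kinetochore was narrower in some other fits and wider in others. With 8 of 15 inner genes called higher (53.3%), the inner and outer medians were 0.22 and 0.35 after the length and GC correction and 0.25 and 0.33 without DMSO replicate 2, the outer kinetochore staying at 8 of 13. In the same fits 28.4% and 27.5% of all genes tested were called higher. The inner and outer medians were 0.12 and 0.41 without DMSO replicate 1, and 0.17 and 0.42 without BRL-50481 replicate 2. The outer kinetochore, corona, checkpoint and inner centromere together had 19 of 30 genes called higher, 4 called lower and a median of 0.38. The classes share the 6 libraries and have between 3 and 15 genes, so the differences between them are a description and were not tested. The median deviation of each class from its DMSO level was between 0.33 and 0.40 in the BRL-50481 libraries for the outer kinetochore, between 0.13 and 0.19 for the inner kinetochore and between 0.13 and 0.25 for the checkpoint. The treated libraries were thus above all controls in every class other than CENP-A loading, where DMSO 1 was the lowest of the 6.

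**Figure D4:**
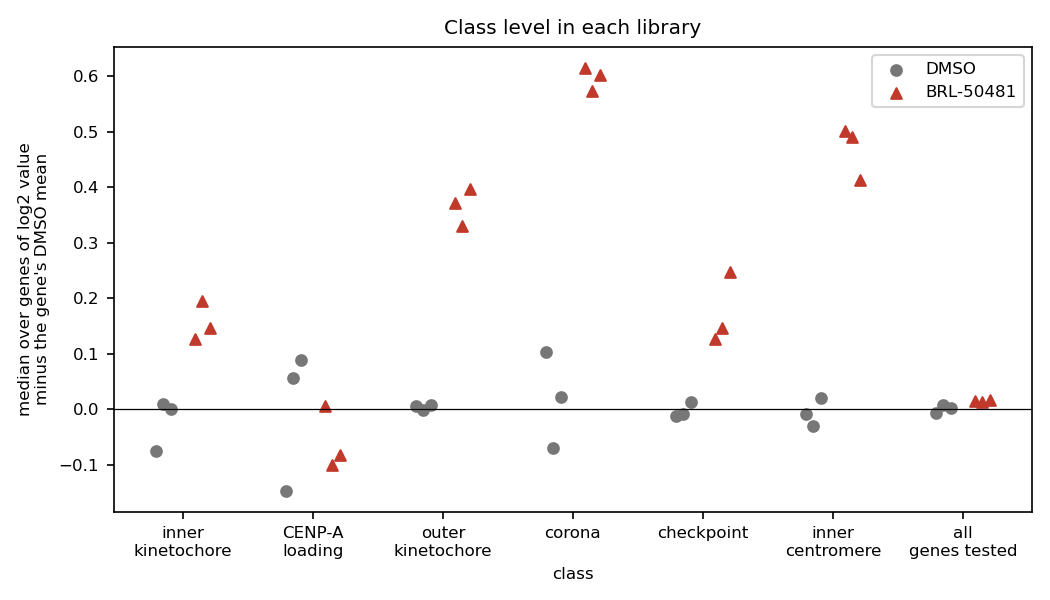
Median over the genes of each class of the log2 value minus the gene's DMSO mean (vertical axis), by class (horizontal axis), with 1 point for each library. BRL-50481 libraries lie between 0.57 and 0.61 for the corona and between 0.013 and 0.018 for all genes tested.

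Levels of different genes were compared per length, as the mean normalized count of each group per kb of transcript. The length is that of a single GENCODE transcript per gene, and which transcripts these cells use was not tested, so ranks depend on it. In DMSO BUB3 was the most abundant member with 1097, followed by SKA2 with 1080, DSN1 with 1018, CENPQ with 999 and ZWINT with 998. In BRL-50481 the order was BUB1 with 1636, NDC80 with 1560, CENPF with 1455, NUF2 with 1195 and ZWINT with 1179. The inner kinetochore gene CENPP was the lowest in both groups, with 29.0 in DMSO and 24.9 in BRL-50481. Its length was taken as 8293 bases, and before division its mean count of 223 was above the 169 of SPC24. Within the NDC80 complex, whose subunits stand in equal number, the level in DMSO was 803 per kb for NDC80, 874 for NUF2, 199 for SPC25 and 62.2 for SPC24. In BRL-50481 it was 1560, 1195, 434 and 85.5, so the order of NDC80 and NUF2 was exchanged. Similar unequal levels were found for the histone CENPA and its chaperone HJURP, with 188 and 466 per kb in DMSO and 421 and 914 in BRL-50481. CENPI and CENPH, which share a subcomplex and changed in opposite directions, had 48.9 and 798 per kb in DMSO and 105 and 605 in BRL-50481.

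**Figure D5:**
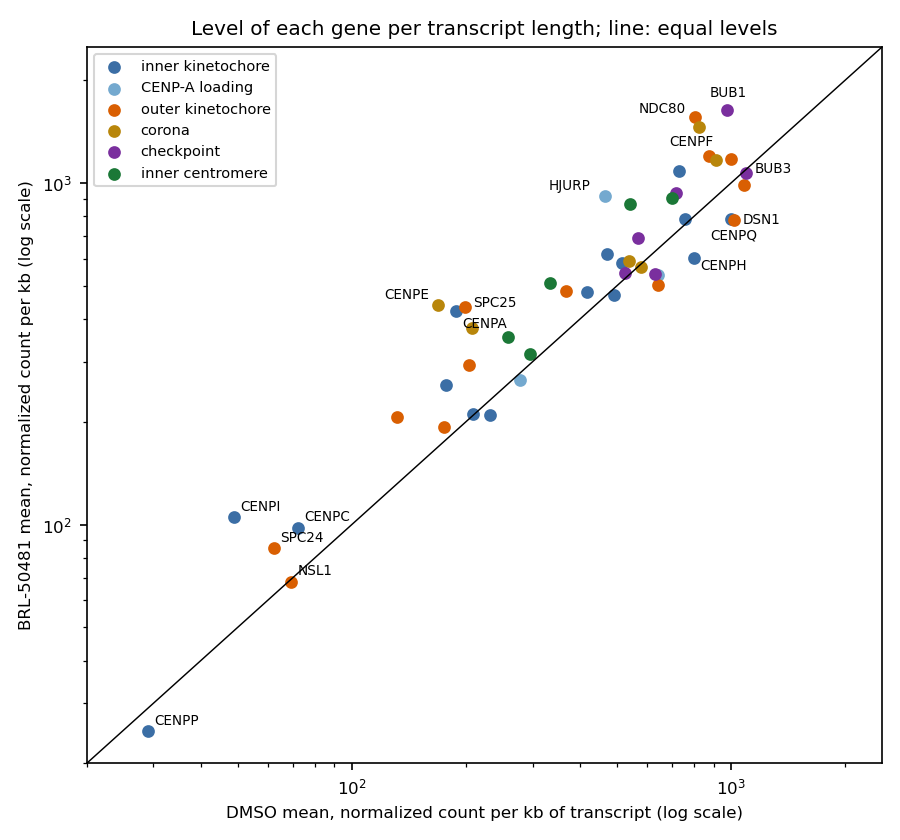
Mean normalized count per kb of transcript in BRL-50481 (vertical axis) against DMSO (horizontal axis), both on a log scale, for the 48 genes by class, with a line of equal levels. CENPE, SPC25 and CENPA lie farthest above the line together with CENPI, and CENPQ, DSN1 and CENPH lie below it among the abundant genes.

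Further kinetochore proteins outside the 48 were tested as 16 genes, of which 9 were called higher (56.2%) and 4 lower (25%). Of all genes tested, 28.9% were called higher and 29.8% lower. The median of the 16 genes was 0.18 on the log2 scale. PLK1, the mitotic kinase that binds CENPU and BUB1, had 765, 880 and 805 normalized counts in DMSO and 2006, 2201 and 1954 in BRL-50481 (1.33, SE 0.0708, adjusted p = 1.12e-08). KIF2C (MCAK), the kinesin that takes microtubules apart at centromeres, had 1973, 2030 and 2072 in DMSO and 4348, 4374 and 4527 in BRL-50481 (1.12, SE 0.0498, adjusted p = 3.09e-09). Both lay well above all controls. In the opposite direction, CENPX, a small histone-fold partner of CENP-T that the table lists as STRA13, had 1378, 1675 and 1540 in DMSO and 699, 700 and 674 in BRL-50481 (-1.14, SE 0.075, adjusted p = 6.37e-08). Among the most abundant, CDC20, the target of MAD2, rose by 0.19 (SE 0.057, called in 15 of 18 other settings) and BOD1, a phosphatase inhibitor at kinetochores, fell by 0.42 (SE 0.0537) on the log2 scale, while RANGAP1 was not called (-0.030, SE 0.0519).

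The anaphase-promoting complex, which the checkpoint restrains, had 6 of 17 genes called higher (35.3%) and 5 lower (29.4%). These shares were near the 28.9% and 29.8% of all genes tested, and the median was -0.12 on the log2 scale. Without DMSO replicate 1 there were 9 lower, where 4933 of all 15246 genes tested were called lower. CDC27, a subunit that binds CDC20, rose by 0.59 (SE 0.0677), ANAPC16 fell by 0.40 (SE 0.0576) and the ubiquitin-conjugating enzyme UBE2C was not called (0.14, SE 0.0676). After the length and GC correction UBE2C was called higher (0.20, adjusted p = 0.000226). The list then had 6 called higher and 6 lower (35.3% each) and a median of -0.053. In that fit 28.4% of all genes tested were called higher and 37.3% lower. Cohesin genes, whose product holds sister centromeres together, had 7 of 16 called higher (43.8%) and 3 lower (18.8%). Their median was 0.067, or 0.17 without DMSO replicate 1. After the length and GC correction 6 were called higher (37.5%) and 8 lower (50%), and the median was -0.034. RAD21, the subunit that separase cuts, rose by 0.36 (SE 0.048), whereas PDS5A (0.080, SE 0.0613) and SMC3 (-0.031, SE 0.0521) were not called. After the correction both of these long genes were called lower, PDS5A at -0.096 and SMC3 at -0.17.

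Regulators of mitotic genes, that is FOXM1 and subunits of DREAM, MYB-MuvB and NF-Y, had 2 of 16 called higher (12.5%) and 9 lower (56.2%). Of all genes tested, 28.9% were called higher and 29.8% lower. The median of the regulators was -0.16. After the length and GC correction there were 11 lower calls (68.8%, against 37.3% of all genes) and a median of -0.27. Under median centring and under quantile normalization there were 7 lower calls, where 4211 and 4448 of all 15246 genes were called lower. FOXM1, which binds CHR promoters through MYB-MuvB, had 2441, 2440 and 2443 normalized counts in DMSO and 3894, 3965 and 3632 in BRL-50481 (0.65, SE 0.0518, adjusted p = 3.37e-07). The DMSO libraries were almost equal, and all treated libraries were above them. TFDP1, the dimer partner of E2F proteins, fell by 0.39 (SE 0.0471) and the MuvB subunit RBBP4 by 0.49 (SE 0.0497). RBL2, the other regulator called higher, rose by 0.85 (SE 0.0777), and LIN52, the lowest of the list, fell by 0.90 (SE 0.0883). Replication licensing genes, which act before S phase, were at the other end of the range. Of these, 2 of 15 were called higher (13.3%) and 11 lower (73.3%), with a median of -0.68. MCM2 had 3340, 3239 and 3420 in DMSO and 1377, 1518 and 1340 in BRL-50481 (-1.24, SE 0.0598, adjusted p = 4.91e-09), and MCM3 and MCM7, further subunits of the replicative helicase, fell by 1.14 (SE 0.0454) and 0.84 (SE 0.0542). CDC6, which loads the helicase, fell by 0.98 (SE 0.048). Every BRL-50481 library was below every DMSO library for these 4 genes.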

How the data were processed

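RNA-seq of 6 MDA-MB-231 libraries, 3 DMSO and 3 BRL-50481, was analysed from 1 table, with samples grouped by their labels. The 48 members, their classes and the other gene lists were chosen with earlier results of these data known, so nothing here is independent of those results. According to the Methods, the authors aligned reads to hg38 with STAR, counted them on the gene's strand with HTSeq and normalized the counts with DESeq2. STAR 2.7.1a and DESeq2 1.28 are the versions in the submitters' processing notes. The deposited values, a signal per gene and library, are counts divided by the library's size factor. Every value is a whole multiple of the value of 1 read to within 1e-06, so reads were recovered by division. The authors' own comparison columns (fold change, its error and p-values) were not used.

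Genes that reached a normalized count of 4 in 3 or more libraries (15246 of 15651) were tested with limma 3.58.1 in R 4.3.3 (lmFit, eBayes with trend) on log2(normalized count + 1), with group as the only term, and called at a Benjamini-Hochberg adjusted p under 0.05. Fold changes are on this log2(value + 1) scale, which understates changes of low genes. Per-library values are given for the 2 genes of each class with the highest log2 fold change and the lowest 1, for members called lower, and for the 2 most abundant per length. KNL1, CENPF, ZW10 and BUB3 were added after their values were seen. Of other lists, the 3 most abundant genes and those called past 1 in absolute log2 fold change are named. RBL2 and LIN52, the highest and lowest of the regulators, were added after their values were seen. Transcript length, GC content and positions are from GENCODE v44 on hg38, given for 96.4% of genes. CENPS was not analysed here, because its older symbol could not be told from a readthrough gene's.

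Other settings tried were a pseudocount of 0.5 or 4, omitting the filter or requiring a mean of 20, median centring, quantile normalization, limma without trend, edgeR 4.0.16 (quasi-likelihood) and DESeq2 1.42.0 on recovered reads, unadjusted p, a replicate block, a loess correction (span 0.5) for length and GC, and leaving out each library. The procedures were tested on simulated data, with a spread between replicates that was set rather than taken from these libraries. There limma found 100% of changes of 1 and 61% of changes of 0.5 on the log2 scale. It called 5 of 15046 unchanged genes.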

Additional observations from a re-analysis of the deposited data

How the results depend on the processing

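Over the 48 members and 18 other settings, 821 log2 fold changes kept their direction and their side of the threshold, 15 calls were lost, 16 were gained and 12 values changed sign, all 12 in members that were not called. After the length and GC correction, 12 members were called lower in place of 7, with 2 in the checkpoint and 4 in the inner kinetochore, and inner kinetochore genes called higher went from 6 to 8. In that fit 37.3% of all genes tested were called lower. The outer kinetochore median was 0.35, as it was under quantile normalization (0.35). Leaving out 1 library moved the outer kinetochore median between 0.33 and 0.42, the inner kinetochore median between 0.12 and 0.25, and the number of inner kinetochore genes called lower between 2 and 4. The 4 came without DMSO replicate 1, where 4933 of all 15246 genes tested were called lower. The values that changed sign were NSL1 under quantile normalization (0.016) and median centring (0.0052), ZWILCH under quantile normalization (0.033) and CENPO after the correction (-0.038). Leaving out 1 library moved MAD1L1 between -0.012 and 0.14, NSL1 between -0.058 and 0.0034, ZWILCH between -0.073 and 6.2e-05, CENPO between -0.030 and 0.12 and OIP5 between -0.13 and 0.073. The causes were not tested. Same-numbered libraries deviated together with correlations of 0.121, 0.104 and 0.0514. The Spearman rho of their deviations with GC content was -0.461 in DMSO 1 and -0.452 in BRL-50481 1. It was 0.471 and 0.348 in the libraries numbered 2, and 0.123 and 0.128 in those numbered 3. Whether same-numbered libraries were handled together was not tested. With a replicate block, 26 members were called higher, 7 lower and 4 over 1, the counts without it. DMSO 1 had the widest residual SD (0.141, against 0.119 in DMSO 2, 0.0964 in DMSO 3 and 0.079 to 0.083 in BRL-50481), and SKA2 and MIS18A, the members called lower with the largest adjusted p (0.0467 and 0.0458), were the ones whose calls were lost.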

Other observations

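Of 11561 tested genes that are no members and have a RefSeq promoter, 1132 held CHR letters, and 399 of these (35.2%) were called higher and 292 (25.8%) lower, where all 11561 gave 29.8% and 31.3%. With the letters within 50 bases of the start, 123 of 309 genes (39.8%) were called higher and 77 (24.9%) lower. The median log2 fold changes were 0.081 and 0.117, against 0.0093 for all 11561 genes. These counts are a description of the letters and the calls, with no test.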
